A study of Mus musculus with 6 samples.

Results

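The genes described here are the 47 named components of the mouse DNA replication machinery, from origin licensing to nucleotide supply. They were taken as a list of gene symbols, and the array cluster annotated with that single symbol, or the brighter one over the 6 arrays where a gene had several, stands for the gene. All 47 had a cluster, of 19933 genes with a named cluster in the series. RNA came from 3 hearts labelled knockout for β1 integrin and 3 hearts labelled wild type, all at embryonic day 12.5 (E12.5), and each sample was read on 1 Affymetrix Mouse Gene 1.0 ST array. β1 integrin, encoded by Itgb1, is the common β chain of most receptors for collagen, laminin and fibronectin. The sources used here give no strain, no Cre line, no cell type for the loss of the gene and no word on pooled embryos. Heart stands below for 1 sample. The submitters describe the hearts as biological replicates without naming litters, so a p-value here reflects only the scatter among these 6 samples, which may be partly technical.

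DNA replication begins in G1, when the origin recognition complex and the factors CDC6 and CDT1 load the ring-shaped MCM helicase onto DNA. In S phase CDC45 and the GINS complex turn that ring into an active helicase, after which polymerase α with primase starts each strand and polymerases δ and ε extend it on the PCNA clamp. At this stage of development heart muscle grows by cell division, so cycling cardiomyocytes carry these transcripts, as do dividing cells of the blood, the cushions and the epicardium.

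Many replication genes are known targets of E2F transcription factors, which switch on genes of the G1 to S transition. In RefSeq promoter windows of assembly GRCm38.p6, each of 300 bases with 250 before and 50 after an annotated start, 39 of the 47 genes were found. The E2F-type letters searched were TTTCCCGC, TTTCGCGC, TTTGCCGC and TTTGGCGC on both strands, where a match of one on each strand may overlap. They were present in 16 of the 39 genes, or 41.0%, against 2.61% of the 27025 genes with a window. CCAAT, the core of the site bound by NF-Y, was present on either strand in 24 of the 39 (61.5%), against 41.1% of all genes. The following 7 windows hold the 180 bases before an annotated start, 5′ to 3′ on the strand of the gene, with E2F-type letters in capitals. They show 6 genes with a match before that start, in the licensing, helicase and activation steps. The remaining window is that of Tk1, whose difference between the groups had the lowest p of the 47 and whose window had no match. Mcm7 had a further window, with no match, and its window with the most matches is shown. For Mcm7, Mcm5, Cdc6, Orc3 and Tk1 the start used does not coincide with the annotated boundary of the gene.
Mcm7: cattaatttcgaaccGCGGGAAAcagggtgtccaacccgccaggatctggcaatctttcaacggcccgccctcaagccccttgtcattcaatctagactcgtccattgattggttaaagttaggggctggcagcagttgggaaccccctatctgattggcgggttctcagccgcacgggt
Mcm5: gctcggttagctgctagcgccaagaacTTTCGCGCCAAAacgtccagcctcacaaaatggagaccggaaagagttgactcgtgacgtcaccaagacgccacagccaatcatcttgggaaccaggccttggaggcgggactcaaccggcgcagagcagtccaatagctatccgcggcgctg
Mcm6: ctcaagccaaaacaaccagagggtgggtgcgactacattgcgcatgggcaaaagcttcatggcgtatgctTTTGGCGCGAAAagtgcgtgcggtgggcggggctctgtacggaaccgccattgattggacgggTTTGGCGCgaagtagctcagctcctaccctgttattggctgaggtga
Cdc6: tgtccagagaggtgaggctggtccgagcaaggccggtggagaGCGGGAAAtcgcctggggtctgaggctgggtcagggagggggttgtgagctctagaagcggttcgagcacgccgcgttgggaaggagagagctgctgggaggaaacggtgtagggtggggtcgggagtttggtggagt
Gins3: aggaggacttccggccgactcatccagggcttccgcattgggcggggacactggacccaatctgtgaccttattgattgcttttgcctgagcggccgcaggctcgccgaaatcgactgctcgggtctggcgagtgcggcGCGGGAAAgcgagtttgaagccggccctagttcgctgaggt
Orc3: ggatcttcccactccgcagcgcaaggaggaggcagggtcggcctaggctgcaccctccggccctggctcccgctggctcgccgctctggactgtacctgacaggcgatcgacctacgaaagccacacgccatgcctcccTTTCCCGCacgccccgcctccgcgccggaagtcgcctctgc
Tk1: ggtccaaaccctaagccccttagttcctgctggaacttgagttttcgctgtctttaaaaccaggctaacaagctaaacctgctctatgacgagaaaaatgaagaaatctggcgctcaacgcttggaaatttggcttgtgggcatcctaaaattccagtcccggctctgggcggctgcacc
These stretches lie at chr5:138171884-138172063 (minus strand, Mcm7), chr8:75109329-75109508 (plus strand, Mcm5), chr1:128359706-128359885 (minus strand, Mcm6), chr11:98907971-98908150 (plus strand, Cdc6), chr8:95633379-95633558 (plus strand, Gins3), chr4:34614943-34615122 (minus strand, Orc3) and chr11:117826015-117826194 (minus strand, Tk1) of GRCm38.p6. In Mcm5 and in the upstream match of Mcm6 the capitals hold a word on each strand that overlap by 4 bases.

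Itgb1 itself was measured first. Its log2 signal was 11.53, 11.42 and 11.65 in knockout replicates 1 to 3, against 11.76, 11.80 and 11.78 in wild-type replicates 1 to 3. The groups did not overlap, and the difference of -0.25 ± 0.09 (log2, limma SE, adjusted p = 0.797) left 84.0% of the wild-type signal. Where the probes of this cluster lie relative to the deletion is not given in the sources used here, so this signal does not check the labels. Knockout replicate 1 stood apart from the other 5 hearts. Its mean over 12 low-oxygen response genes lay 1.76 (log2) above the wild-type mean, against 0.41 and 0.21 for knockout replicates 2 and 3. Over 9 erythroid markers it lay 1.13 above, against -0.21 and -0.06, and over 5 megakaryocyte and platelet markers 2.28 above, against 0.22 and 0.12. The main counts and differences below are therefore given with and without that heart.

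The replication genes were lower in the knockout hearts by a small margin that came largely from 1 heart, and none passed the test. Of the 47, 43 had a lower mean in the knockout (91.5%) and 4 a higher one, while 53.5% of all 28767 clusters were lower. The median difference of the 47 was -0.14 (log2, knockout minus wild type), against -0.01 over all clusters and -0.02 over the brighter 14384, those at or above the median level. Limma called 0 of the 47 at a Benjamini-Hochberg adjusted p of 0.05, as it called 0% of all clusters, and the lowest adjusted p of a replication gene was 0.797. At an unadjusted p under 0.05, 2 of the 47 were lower, Tk1 and Mcm7, where 2.87% of all clusters were lower at that level. In bulk RNA, fewer cells of a cycling type and less of these transcripts per cell cannot be told apart.

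For 10 of the 47 (21.3%) every knockout heart lay below every wild-type heart, against 6.61% of all clusters and 7.99% of the brighter ones. These 10 were Mcm2, Mcm5, Mcm7, Cdt1, Gins3, Pcna, Pola2, Pold2, Rpa1 and Tk1. Orc3 was the 1 gene with all knockout hearts above, where 6.01% of all clusters lay so. When knockout replicate 1 was left out, 33 of the 47 were lower and 14 higher (70.2% lower, against 52.1% of all clusters), and the median difference was -0.05 in place of -0.14. The same 10 genes lay below all wild-type hearts and Orc3 above, as they must once a heart is removed, and the shares of all clusters for 2 hearts against 3 were 11.1% lower and 9.43% higher. In that comparison 1 replication gene, Tk1, was lower at an unadjusted p under 0.05 (2.85% of all clusters), and limma called 0 of the 47 (0.00348% of all clusters, a single one).

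The wild-type hearts were closely alike in these genes and the knockout hearts were not. The mean over the 47 was 8.58, 8.85 and 8.90 (log2) in knockout replicates 1 to 3, against 8.92, 8.94 and 8.91 in wild-type replicates 1 to 3. Knockout replicate 1 lay 0.34 below the wild-type mean, which is 78.8% of its signal, and replicates 2 and 3 lay 0.07 and 0.02 below. It was the lowest of the 6 hearts for 41 of the 47 genes (87.2%), against 27.1% of all clusters and 39.3% of the brighter ones. It lay under the wild-type mean for 46 genes, knockout replicate 2 for 36 and replicate 3 for 28. The median SD of a gene over 3 hearts was 0.18 in the knockout and 0.07 in the wild type, where over all clusters it was 0.14 and 0.10.

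**Figure D1:**
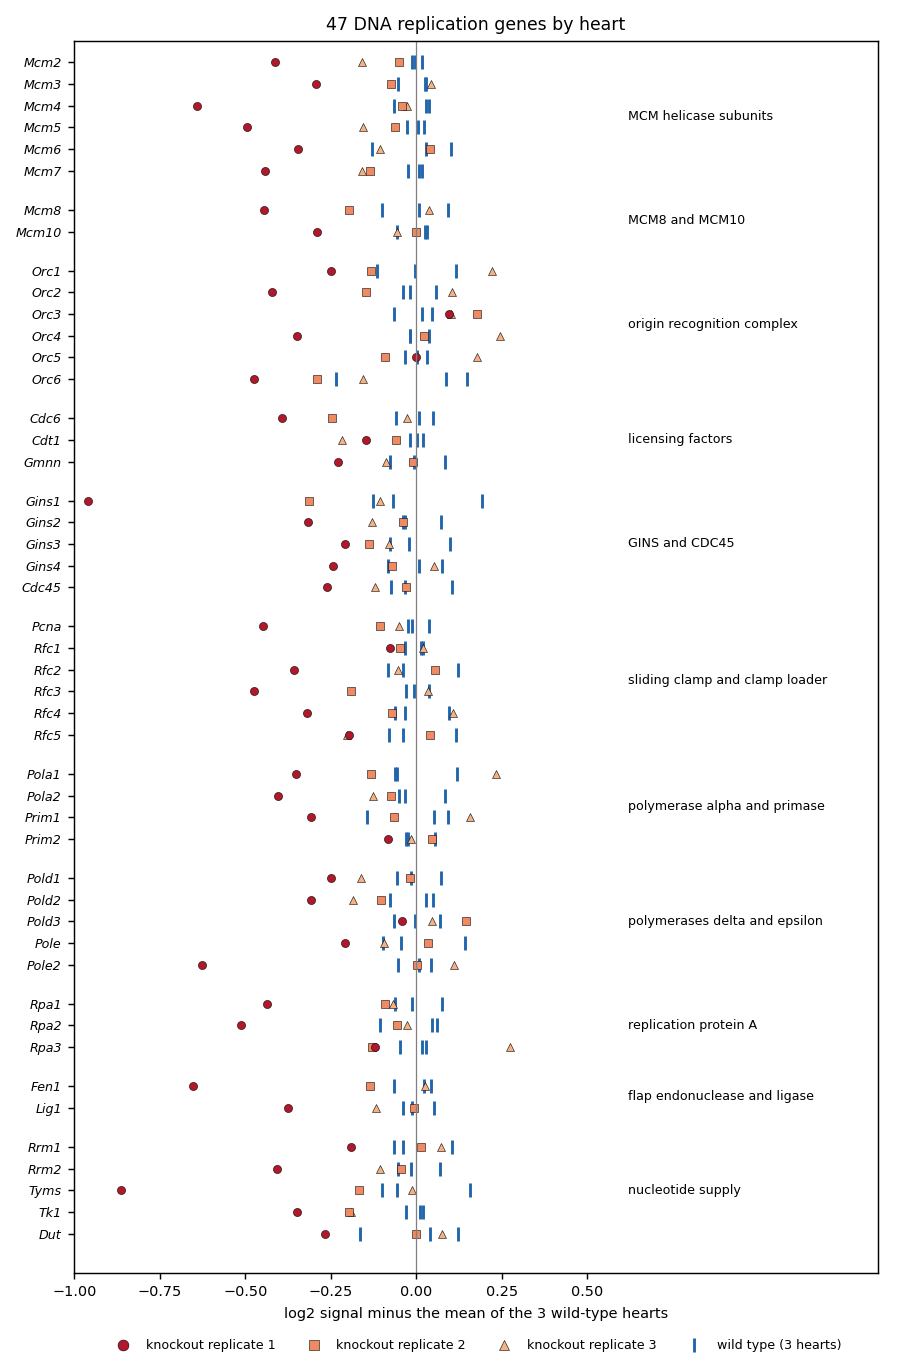
Log2 signal of each of the 47 replication genes in each heart, as the distance from the mean of the 3 wild-type hearts, with genes down the page grouped by complex. Filled circles are knockout replicate 1, squares replicate 2, triangles replicate 3 and blue ticks the wild-type hearts; the circles lie left of all other marks for 41 genes.

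All 6 MCM2 to MCM7 genes were lower in the knockout, 3 of them without overlap (6.61% of all clusters, 7.99% of the brighter ones). Their mean was 9.70, 10.08 and 10.04 in knockout replicates 1 to 3, against 10.13, 10.11 and 10.17 in the wild-type hearts, so that each knockout heart lay below each wild-type heart. The mean difference was -0.20 and stood at -0.07 without knockout replicate 1, with all 6 genes still lower.

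Mcm7, an ATPase subunit of the ring, had a log2 signal of 9.99, 10.30 and 10.28 in knockout replicates 1 to 3, against 10.44, 10.41 and 10.45 in the wild-type hearts. The groups did not overlap, and knockout replicates 2 and 3 lay close together. The difference was -0.25 ± 0.10 (limma SE, adjusted p = 0.797), which is 84.3% of the wild-type signal, and -0.15 without knockout replicate 1. Mcm5, which forms the gate of the ring together with MCM2, had 9.05, 9.49 and 9.39 in the knockout, against 9.57, 9.52 and 9.55 in the wild type. Knockout replicate 1 was lowest by a wide margin, and knockout replicate 2 lay just under the lowest wild-type heart. Its difference was -0.24 ± 0.12, and -0.11 without that heart.

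Mcm2 differed by -0.21 without overlap of the groups, and by -0.11 without knockout replicate 1. Its knockout replicate 2 (10.38) lay just under the lowest wild-type heart (10.42). Mcm4 (-0.24), Mcm6 (-0.14) and Mcm3 (-0.11) overlapped. For these 3 the knockout hearts other than replicate 1 were close to wild type, since the differences without it were -0.04, -0.03 and -0.01. Mcm6, whose promoter above carries 3 E2F-type words, had 10.09, 10.48 and 10.34 in the knockout hearts, against 10.31, 10.47 and 10.54 in the wild-type hearts. Outside the ring, Mcm8, which works with MCM9 in recombination, had 7.50, 7.75 and 7.99 in the knockout, against 7.96, 8.04 and 7.85 in the wild type. The groups overlapped, with the highest knockout heart inside the wild-type range, and the difference was -0.20 ± 0.13, or -0.08 without knockout replicate 1. Mcm10, which helps to activate the loaded helicase, differed by -0.12, and by -0.03 without that heart.

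**Figure D2:**
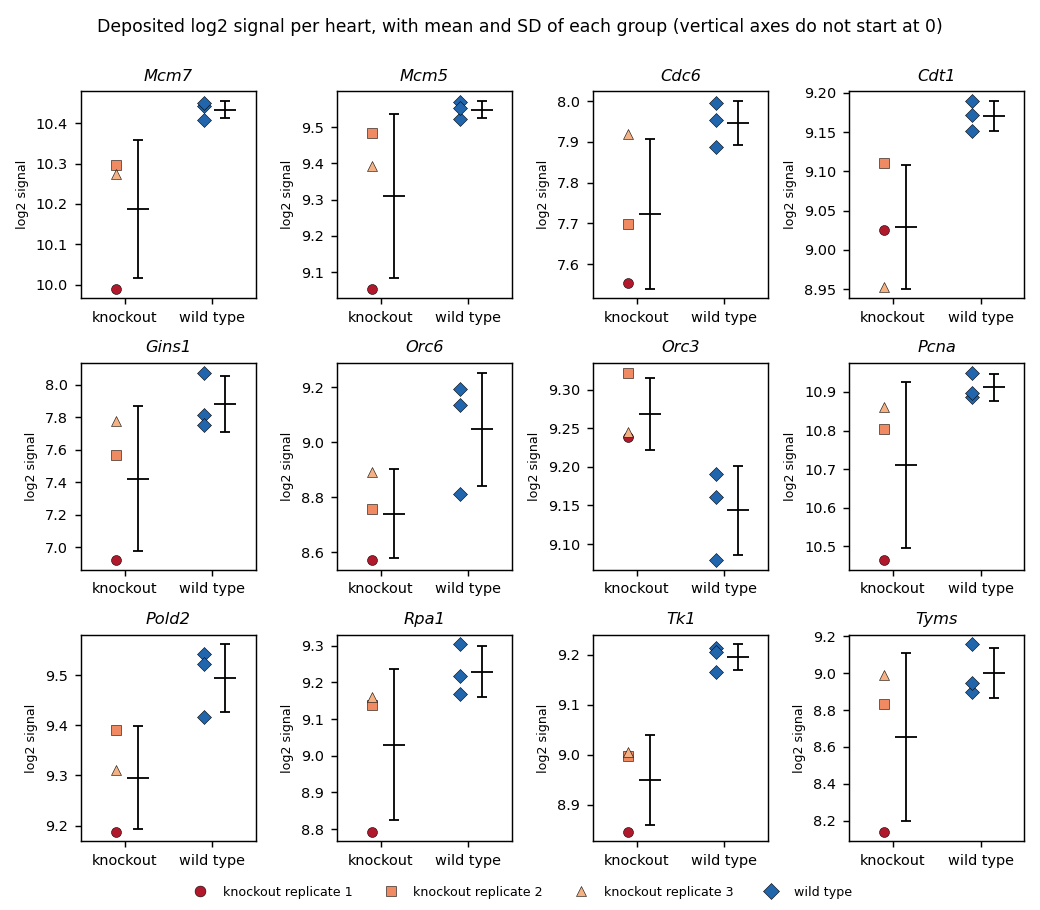
Deposited log2 signal of 12 replication genes per heart, knockout at the left and wild type at the right of each panel, with the mean and SD of 3 hearts beside the points. Mcm7, Mcm5, Cdt1, Pcna, Pold2, Rpa1 and Tk1 do not overlap between the groups, Orc3 is higher in all knockout hearts, and Cdc6, Gins1, Orc6 and Tyms overlap.

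The origin recognition genes did not all go one way. The 6 ORC proteins bind origins and, apart from ORC6, form an ATP-dependent ring. Of the 6 genes, 4 were lower and 2 higher in the knockout, with a mean difference of -0.06 that became 0.02 without knockout replicate 1, when 2 were lower and 4 higher. Orc6 had 8.57, 8.76 and 8.89 in knockout replicates 1 to 3, against 8.81, 9.14 and 9.20 in the wild-type hearts. One wild-type heart lay between knockout replicates 2 and 3, so the groups overlapped. The difference was -0.31 ± 0.13 (adjusted p = 0.797), and -0.22 without knockout replicate 1.

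Orc3 went the other way, at 9.24, 9.32 and 9.25 in the knockout hearts and 9.16, 9.19 and 9.08 in the wild-type hearts. All knockout hearts were above all wild-type hearts, knockout replicate 1 among them. It was higher by 0.13 ± 0.08 (adjusted p = 0.801), and by 0.14 without that heart. Orc5 stood at 0.03, Orc4 at -0.03, Orc1 at -0.05 and Orc2 at -0.15, all with overlap. Orc4 was 0.13 higher and Orc1 0.04 higher without knockout replicate 1, and Orc2 stood at -0.02.

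The licensing factors kept most of their difference when that heart was left out. All 3 were lower, with a mean difference of -0.16, and -0.11 without knockout replicate 1. Cdt1, which brings the helicase to the origin, had 9.03, 9.11 and 8.95 in knockout replicates 1 to 3, against 9.17, 9.19 and 9.15 in the wild-type hearts. Here knockout replicate 3 was the lowest heart, and the groups did not overlap. The difference was -0.14 ± 0.08 (adjusted p = 0.797) with all hearts and -0.14 without knockout replicate 1. Cdc6, the ATPase that joins ORC at the origin, had 7.55, 7.70 and 7.92 in the knockout, against 7.89, 7.95 and 7.996 in the wild type. Knockout replicate 3 lay within the wild-type range, and the difference of -0.22 ± 0.11 was -0.14 without replicate 1. Gmnn, which encodes the CDT1 inhibitor geminin and is degraded at the end of mitosis, differed by -0.11, and by -0.05 without that heart.

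CDC45 and GINS join the MCM ring to form the working helicase. All 5 of their genes were lower, with a mean difference of -0.20, and each of the 5 stayed lower without knockout replicate 1, where the mean difference was -0.10. Gins1 had the largest difference of the 47 genes, at -0.46 ± 0.21 (adjusted p = 0.797). Its signal was 6.92, 7.57 and 7.77 in knockout replicates 1 to 3, against 7.81, 8.07 and 7.75 in the wild-type hearts. Knockout replicate 1 was at 51.4% of the wild-type mean, whereas replicate 3 was within the wild-type range, and the difference was -0.21 without replicate 1. Gins2 had 8.03, 8.31 and 8.21 in the knockout, against 8.30, 8.31 and 8.42 in the wild type, a difference of -0.16 ± 0.10 with overlap, or -0.08 without knockout replicate 1. Gins3, at 7.76, 7.83 and 7.89 in the knockout and 8.07, 7.95 and 7.89 in the wild type, did not overlap by a margin of thousandths. Cdc45 (-0.14) and Gins4 (-0.09) overlapped, and stood at -0.08 and -0.01 without knockout replicate 1.

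**Figure D3:**
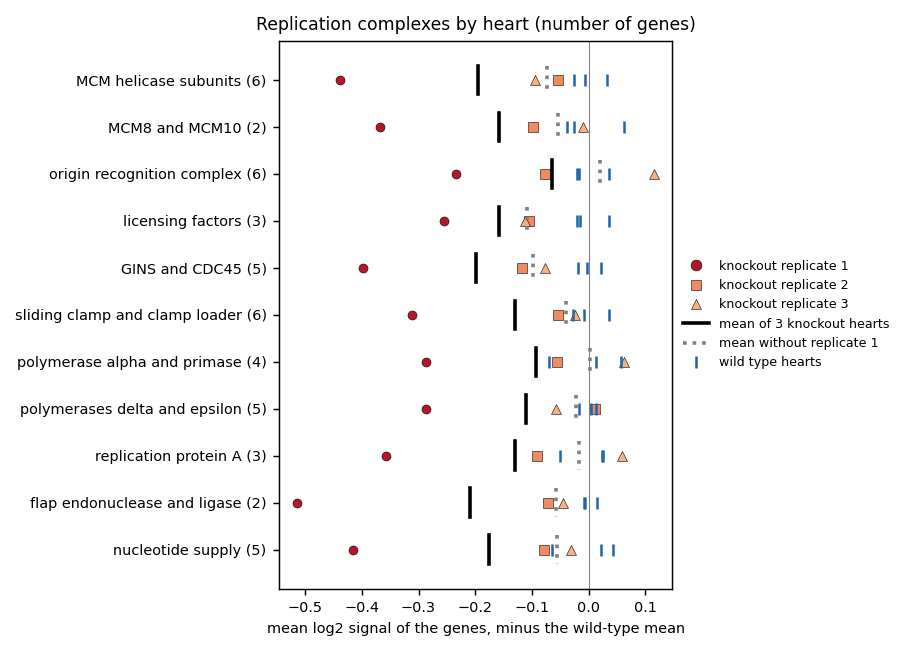
Mean log2 signal over the genes of each replication complex, as the distance from the wild-type mean, for knockout replicates 1 to 3 (circle, square, triangle) and the wild-type hearts (blue ticks). Black bars mark the mean of the 3 knockout hearts and dotted bars the mean without replicate 1, which lies above 0 for the origin recognition complex and for polymerase α with primase.

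PCNA is the ring that holds polymerases on DNA, and replication factor C opens it. All 6 of their genes were lower, with a mean difference of -0.13 and of -0.04 without knockout replicate 1. Pcna had 10.46, 10.80 and 10.86 in knockout replicates 1 to 3, against 10.89, 10.95 and 10.90 in the wild-type hearts. The groups did not overlap, although knockout replicate 3 lay just under the lowest wild-type heart. The difference was -0.20 ± 0.12 (adjusted p = 0.797), and -0.08 without knockout replicate 1. A further cluster annotated as Pcna gave -0.20 ± 0.12, also without overlap. Its values were nearly the same as those of the first cluster in every heart, so it may not be an independent measurement. Rfc3, one of the small loader subunits, had 8.08, 8.36 and 8.59 in the knockout, against 8.54, 8.52 and 8.59 in the wild type, and differed by -0.21 ± 0.13 with overlap, or by -0.08 without knockout replicate 1. The other loader genes stood at -0.12 (Rfc2), -0.12 (Rfc5), -0.09 (Rfc4) and -0.04 (Rfc1, the large subunit), and without that heart Rfc2 stood at 0.00, Rfc4 at 0.02, Rfc5 at -0.08 and Rfc1 at -0.01.

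Polymerase α and primase lay the RNA-DNA primers. Their 4 genes were lower by a mean of 0.09, and their mean difference was 0.00 without knockout replicate 1, when 1 was lower and 3 higher. Pola2, the accessory B subunit, was the exception. It had 8.35, 8.68 and 8.63 in knockout replicates 1 to 3, against 8.84, 8.72 and 8.70 in the wild-type hearts, with no overlap, and differed by -0.20 ± 0.11 (adjusted p = 0.797) and by -0.10 without knockout replicate 1. Pola1, the catalytic subunit, had 8.43, 8.65 and 9.02 in the knockout, against 8.72, 8.90 and 8.73 in the wild type. Its knockout hearts lay on both sides of all wild-type hearts, and the difference was -0.08 ± 0.15, or 0.05 without knockout replicate 1. The primase genes Prim1 and Prim2 stood at -0.07 and -0.02, or at 0.05 and 0.02 without it.

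Polymerases δ and ε copy the lagging and leading strands. Of 5 genes 4 were lower and 1 higher, with a mean difference of -0.11 and of -0.02 without knockout replicate 1. Pold2, a δ accessory subunit, had 9.19, 9.39 and 9.31 in knockout replicates 1 to 3, against 9.54, 9.52 and 9.42 in the wild-type hearts. The groups did not overlap, and the difference was -0.20 ± 0.09 (adjusted p = 0.797), or -0.14 without that heart. Pold1, the catalytic δ subunit, had 8.33, 8.57 and 8.42 in the knockout, against 8.57, 8.53 and 8.66 in the wild type, and overlapped at -0.14 ± 0.09, or -0.09 without knockout replicate 1. Pole, the catalytic ε subunit, stood at -0.09 and Pole2 at -0.17, and without knockout replicate 1 they stood at -0.03 and 0.06. Pold3, a further δ subunit, was the higher gene, at 0.05 ± 0.09, or 0.10 without that heart.

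Replication protein A coats single-stranded DNA at the fork. Rpa1, its large subunit, had 8.79, 9.14 and 9.16 in knockout replicates 1 to 3, against 9.17, 9.30 and 9.22 in the wild-type hearts. The groups did not overlap, but knockout replicates 2 and 3 lay just under the lowest wild-type heart, and the difference of -0.20 ± 0.12 was -0.08 without replicate 1. Rpa2 had 8.72, 9.18 and 9.21 in the knockout, against 9.13, 9.28 and 9.29 in the wild type, with overlap and a difference of -0.20 ± 0.14, or -0.04 without knockout replicate 1. Rpa3, the smallest subunit, stood at 0.01 ± 0.12, and a further cluster annotated to it at 0.07 ± 0.11, or at 0.07 and 0.18 without knockout replicate 1.

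FEN1 and DNA ligase I finish Okazaki fragments on the lagging strand. Fen1 had 7.63, 8.14 and 8.31 in knockout replicates 1 to 3, against 8.30, 8.32 and 8.22 in the wild-type hearts. Knockout replicate 1 was at 63.6% of the wild-type mean and replicate 3 within the wild-type range, so the difference of -0.25 ± 0.17 was -0.05 without replicate 1. Lig1 differed by -0.17 with overlap, and by -0.06 without that heart.

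Nucleotide supply included the gene with the lowest p. All 5 genes were lower, with a mean difference of -0.18 and of -0.06 without knockout replicate 1, when 3 were lower and 2 higher. Tk1, the thymidine kinase of S phase, had 8.85, 8.997 and 9.01 in knockout replicates 1 to 3, against 9.17, 9.21 and 9.21 in the wild-type hearts. The 3 knockout hearts lay well below the wild-type hearts, which spanned only hundredths. The difference was -0.25 ± 0.08 (limma SE, adjusted p = 0.797), 84.4% of the wild-type signal, and -0.19 without knockout replicate 1 (adjusted p = 0.879). A further cluster annotated as Tk1 had 8.13, 8.58 and 8.37 in the knockout and 8.62, 8.66 and 8.58 in the wild type. It gave -0.26 ± 0.12, or -0.15 without knockout replicate 1, and did not overlap by a margin of thousandths.

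Tyms, thymidylate synthase, which makes dTMP from dUMP, had 8.14, 8.84 and 8.99 in knockout replicates 1 to 3, against 9.16, 8.90 and 8.95 in the wild-type hearts. Knockout replicate 1 was at 55.0% of the wild-type mean and replicate 3 within the wild-type range. The difference was -0.35 ± 0.21, and -0.09 without it. The ribonucleotide reductase genes Rrm2, its S-phase subunit, and Rrm1, its large subunit, differed by -0.19 and -0.03, and the dUTPase gene Dut by -0.06. Rrm1 and Dut were each 0.04 higher without knockout replicate 1, and Rrm2 stood at -0.07.

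**Figure D4:**
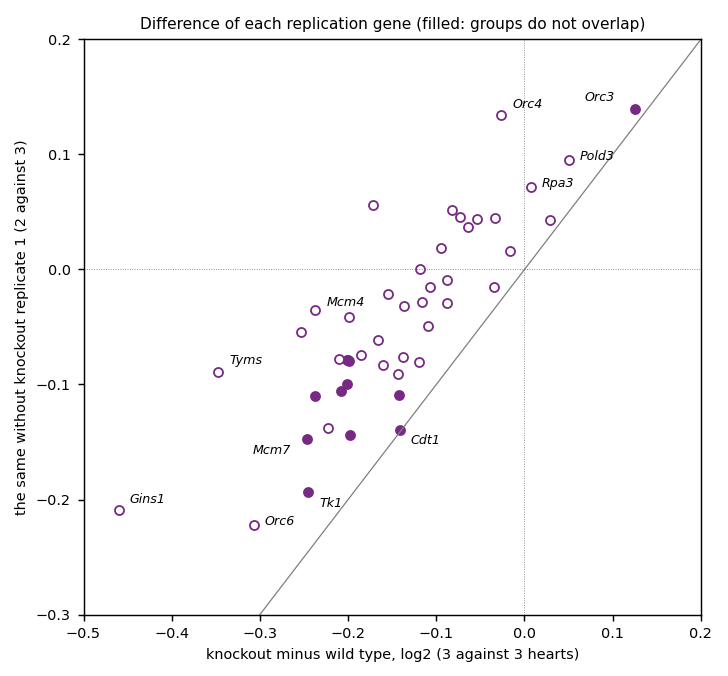
Difference of each replication gene between knockout and wild type (log2), from 3 against 3 hearts on the horizontal axis and without knockout replicate 1 on the vertical axis, with a line where both are equal. All 47 points lie on or above the line, filled points are the 11 genes whose groups do not overlap, and Tk1 and Mcm7 are among the lower ones on both axes.

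Further lists of replication and related genes outside the 47 were also mostly lower. Of 27 other replication and fork genes, 23 were lower and 4 higher in the knockout, with a median difference of -0.15. The lower ones included Ssbp1 (-0.11, or 0.10 without knockout replicate 1), whose protein acts on mitochondrial DNA. For 7 of the 27 (25.9%) the groups did not overlap, all lower, against 6.61% of all clusters and 7.99% of the brighter ones. Without knockout replicate 1, 17 were lower and the median was -0.07. The same 7 then lay below all wild-type hearts and Topbp1 above, where 11.1% and 9.43% of all clusters lay so. Dscc1, which encodes a subunit of a PCNA loader for sister chromatid cohesion, had the lowest p, at 6.24, 6.65 and 6.77 in the knockout and 6.89, 6.88 and 6.87 in the wild type. That is a difference of -0.33 ± 0.14 (adjusted p = 0.797), or -0.17 without that heart. The fork protection gene Timeless (-0.25) and the nuclease-helicase gene Dna2 (-0.21) followed, both without overlap, at -0.14 and -0.15 without knockout replicate 1.

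All 9 measured genes of a further nucleotide supply list were lower, with a median of -0.13, and all 9 stayed lower without knockout replicate 1, at a median of -0.10. The list holds Samhd1 (-0.13), which breaks down DNA precursors, and the mitochondrial kinase genes Tk2 (-0.10) and Dguok (-0.09). These counts therefore give no single direction for supply in S phase. Rrm2b, a ribonucleotide reductase subunit used outside S phase, stood at -0.29, the nucleotide kinase gene Cmpk1 at -0.36 and the dCMP deaminase gene Dctd at -0.32, all with overlap. Leaving out knockout replicate 1 gave -0.21 for Rrm2b, -0.15 for Cmpk1 and -0.17 for Dctd. The 11 measured genes of chromatin assembly at the fork were also all lower, by a median of 0.12, but each had its lowest signal in knockout replicate 1. Without that heart 4 were lower and 7 higher, at a median of 0.01. Those with the lowest p were the chromatin assembly factor gene Chaf1b (-0.20), the maintenance methylation cofactor gene Uhrf1 (-0.12) and the histone chaperone gene Nasp (-0.20). Without that heart Chaf1b stood at -0.11, Uhrf1 at -0.06 and Nasp at 0.01. Limma called 0 genes in each of these 3 lists. At an unadjusted p under 0.05 there was 1, Dscc1, which was lower, where 2.87% of all clusters were lower at that level.

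Of 21 measured E2F factors and regulators of the G1 to S step, 17 were lower and 4 higher, with a median of -0.09. Without knockout replicate 1, 13 were lower, at a median of -0.01. The list holds inhibitors as well as activators of S-phase entry, so these counts give no single direction for that step. The 4 higher genes were Rbl2 (0.23), Cdkn1b (0.16), Rb1 (0.11) and Tfdp2 (0.10), all with overlap. They stood at 0.15, 0.03, -0.003 and 0.02 without knockout replicate 1. Cdkn1c, which encodes the cell cycle inhibitor p57, had the lowest p, at 12.06, 12.22 and 12.21 in the knockout and 12.44, 12.40 and 12.41 in the wild type. The difference was -0.26 ± 0.08 with no overlap, or -0.21 without knockout replicate 1. Ccne1, cyclin E1, the partner of CDK2 at the start of S phase, had 8.43, 8.72 and 8.87 in the knockout, against 9.07, 9.08 and 8.92 in the wild type. It differed by -0.35 ± 0.12, and by -0.23 without that heart, and did not overlap. E2f2 stood at -0.21 with overlap, and at -0.28 without that heart, when its groups did not overlap. In that comparison 4 of the 21 lay below all wild-type hearts and 2 above, where 11.1% and 9.43% of all clusters lay so. Limma called 0 of the 21. With all hearts, Cdkn1c and Ccne1 were the 2 at an unadjusted p under 0.05, both lower, where 2.87% of all clusters were lower at that level. Without knockout replicate 1 there were 3, Cdkn1c, E2f2 and Ccne1, all lower (2.85% of all clusters).

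The 9 measured mitosis markers split into 5 lower and 4 higher, with a median of -0.06. Their mean was 9.60, 9.66 and 9.63 in knockout replicates 1 to 3, against 9.70, 9.70 and 9.61 in the wild-type hearts, so the groups overlapped. In knockout replicate 1 the median mitosis marker stood at -0.20 from its wild-type mean (mean over the 9, -0.07), and the median replication gene at -0.35 (mean over the 47, -0.34). The 9 markers went both ways in that heart. The difference between the lists was not tested. Cdk1, the mitotic kinase gene, stood at -0.13 without overlap, Plk1 at -0.13 and the survivin gene Birc5 at -0.12, both with overlap. When knockout replicate 1 was left out, Cdk1 stood at -0.10, Plk1 at -0.09 and Birc5 at -0.06. The 4 higher markers were Kif11 (0.06), Bub1 (0.06), Mki67 (0.04) and Aurkb (0.004), all with overlap. Without that heart they stood at 0.06, 0.06, -0.04 and -0.04. Limma called 0 of the 9, with 0 at an unadjusted p under 0.05.

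Markers of the cell types in and around the heart were set beside these values. The 10 cardiomyocyte markers had a mean of 12.24, 12.34 and 12.31 in knockout replicates 1 to 3, against 12.35, 12.34 and 12.32 in the wild-type hearts, so markers of the labelled tissue were present in all 6 hearts. Of the 10, 7 were lower and 3 higher. The 8 endothelial markers, 6 of them lower, averaged 9.88, 9.86 and 9.89 in the knockout, against 10.02, 9.95 and 9.93 in the wild type. Of the 6 epicardial markers 4 were higher and 2 lower, at 8.66, 8.77 and 8.98 in the knockout and 8.78, 8.74 and 8.86 in the wild type. The 6 cushion mesenchyme markers, 5 of them higher, had means of 8.95, 8.999 and 9.48 in the knockout, against 8.81, 8.46 and 9.44 in the wild type, and spread widely within both groups. For the 4 smooth muscle markers, of which 2 were higher, the means were 9.87, 9.59 and 9.98 in the knockout, against 9.70, 9.59 and 9.86 in the wild type.

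Blood and low-oxygen genes were highest in knockout replicate 1, the heart in which the replication genes were lowest. The 9 measured erythroid markers averaged 10.01, 8.67 and 8.81 in knockout replicates 1 to 3, against 9.03, 8.99 and 8.60 in the wild-type hearts, with 8 of 9 higher in the knockout and 2 of 9 without replicate 1. Megakaryocyte and platelet markers, all 5 higher, averaged 9.30, 7.24 and 7.14 in the knockout, against 6.94, 7.07 and 7.06 in the wild type. All 12 low-oxygen response genes were higher, with means of 10.49, 9.15 and 8.94 in the knockout, against 8.74, 8.70 and 8.75 in the wild type, and 11 of them remained higher without that heart. The 8 macrophage markers, all higher, averaged 6.78, 6.97 and 6.87 in the knockout, against 6.65, 6.58 and 6.61 in the wild type, and were not highest in replicate 1. The 6 hepatocyte markers, all higher, averaged 5.94, 6.22 and 6.43 in the knockout, against 5.46, 5.52 and 5.72 in the wild type. Those hepatocyte means lay below the array medians (6.65 to 6.71). Only 1 of the 6 hepatocyte markers and 4 of the 8 macrophage markers stood at or above the median level of all clusters. The part of any of these cells, or of the low-oxygen genes, in the lower replication signal was not tested.

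**Figure D5:**
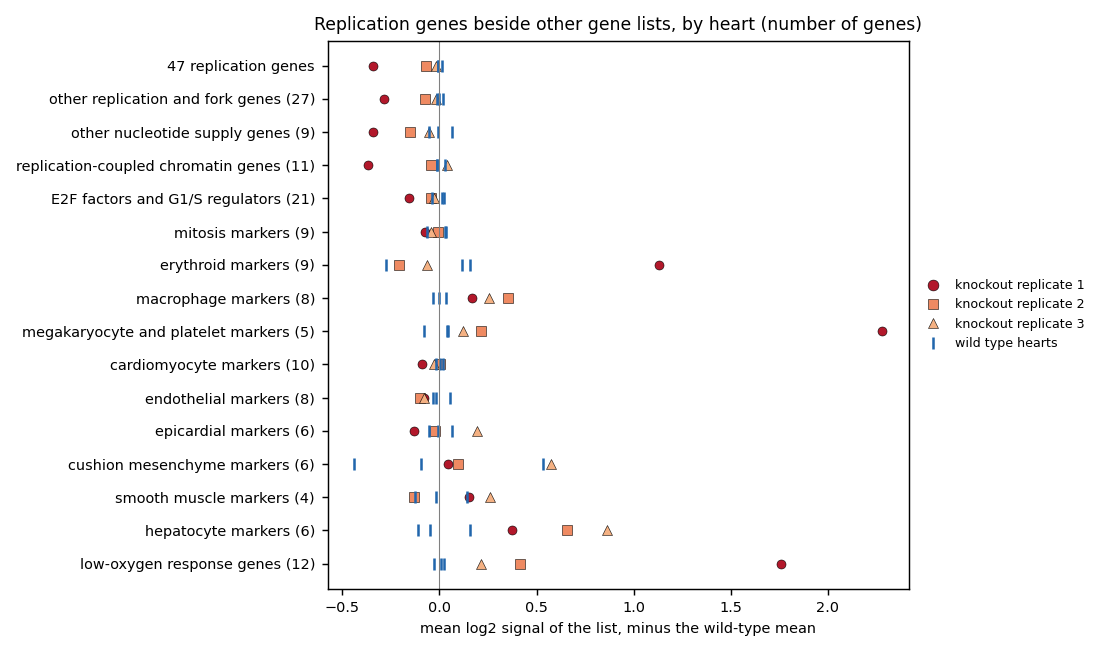
Mean log2 signal of the 47 replication genes and of 15 other gene lists in each heart, as the distance from the wild-type mean, with knockout replicates 1 to 3 as circle, square and triangle and wild-type hearts as blue ticks. Knockout replicate 1 lies at -0.34 for the replication genes, -0.07 for the mitosis markers (medians -0.35 and -0.20), 1.13 for the erythroid markers and 1.76 for the low-oxygen response genes.

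The 16 genes with E2F-type letters in a promoter window had a median difference of -0.14, with 14 lower and 4 without overlap and lower. The 23 genes whose windows lacked them had a median of -0.15, with 21 lower and 6 of the same kind. Of all clusters, 6.61% were of that kind. The 8 genes with no window, Gins1 among them, had a median of -0.11, with 8 lower and 0 of that kind. Without knockout replicate 1 the medians were -0.07 with the letters, -0.05 without them and -0.03 with no window. In knockout replicate 1 the sets with and without the letters both lay at a median of -0.35 from the wild-type mean, and the genes with no window at -0.28. Orc3, the gene higher in every knockout heart, carries TTTCCCGC in the stretch shown above, as Cdc6 does on the opposite strand. Outside the 47, the letters were present in 6 of 23 other replication and fork genes, in 3 of 11 chromatin genes of the fork, in 1 of 8 mitosis markers and in 0 of 10 cardiomyocyte markers. A match is a description of the letters, and binding was not measured here.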

How the data were processed

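RNA extracted with Trizol and labelled with biotin was hybridised to 6 arrays, per the labels' protocols. The authors used RMA, per the submitters' processing notes, and the range of the deposited table is that of log2 signals. RMA corrects background, brings arrays to 1 distribution and summarises probes, which compresses differences of dim clusters. Not given in the sources used here: its version, probe annotation, genome build and filters. The array medians lay between 6.65 and 6.71. Of 28767 clusters 21776 carried 1 gene symbol, 1618 several and 5373 none. Symbols were updated by Entrez identifier, which matched 21686. Of the 47 genes, Pcna, Rpa3 and Tk1 had 2 clusters each.

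The 2 groups were compared (knockout minus wild type) with limma 3.58.1 in R 4.3.3 (lmFit, eBayes, two-sided, no covariate, no filter) over all clusters, with Benjamini-Hochberg adjustment and a threshold of 0.05. The median SE of a difference was 0.11 (log2), and 3 arrays a group limit the precision. The fit was tested on simulated data. Replicate numbers are shared by the groups, and deviations of same-numbered hearts correlated at -0.04, -0.03 and -0.06 over all clusters. These values cannot exclude shared litters or sessions, and the cushion mesenchyme markers were highest in replicate 3 of both groups. The main fit left the hearts unpaired. The genes and lists, the rule for genes given in all 6 hearts (the 2 with the lowest p of each complex, 1 of a pair, Mcm7 and Gins1) and the tests were chosen with earlier results of these data known. Mcm6 and Gins3 were added for their promoters. Alternatives were a filter on dim clusters, averaged clusters, cyclic loess, median centring, array weights, a variance prior with trend and robust fit, a replicate block and leaving out each heart. Listed genes without a cluster of 1 symbol are not analysed here.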

Additional observations from a re-analysis of the deposited data

How the results depend on the processing

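Limma called 0 of the 47 replication genes under all 13 alternatives, with a lowest adjusted p of 0.295 (Tk1, array weights). Over all clusters it called 0 in each alternative except without knockout replicate 1, so leaving out a heart gave 0 to 1. The number of the 47 that were lower was 40 to 43 under the alternatives that kept all hearts, and 33 to 45 when a heart was left out, with the low end without knockout replicate 1. The median difference of the 47 lay between -0.15 and -0.08 with all hearts and between -0.20 and -0.05 without one. With the replicate block it was -0.14 and 43 genes were lower, and no call changed. Leaving out each heart gave mean differences of -0.15 to 0.0196 for the origin recognition complex and -0.17 to 0.0033 for polymerase α with primase, both turned only without knockout replicate 1, and the other 9 complexes were lower under every alternative. Of the 47 genes 33 kept their sign throughout. With a heart left out, the ranges of genes that turned were -0.15 to 0.0372 for Dut, -0.19 to 0.0437 for Orc1, -0.16 to 0.13 for Orc4, -0.0458 to 0.0887 for Orc5, -0.24 to 0.0513 for Pola1, -0.31 to 0.0558 for Pole2, -0.19 to 0.0455 for Prim1, -0.0487 to 0.0163 for Prim2, -0.21 to 0.0007 for Rfc2, -0.20 to 0.0185 for Rfc4, -0.13 to 0.0755 for Rpa3 and -0.0877 to 0.0443 for Rrm1. Cyclic loess turned Orc4 (0.0045) and Prim2 (0.0124). Array weights, which gave knockout replicate 1 a weight of 0.35, turned Orc4 (0.0192), Orc5 (-0.0505), Rfc2 (0.0219), Rfc5 (0.0080), Prim2 (0.0176), Pole (0.0234) and Rpa3 (-0.064). The cause was not tested, other than that fewer hearts entered the fits that left one out. Signal over background of single probes was not used here.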
